A study of Mus musculus with 6 samples.

Results

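The Bcl2 family sets whether a cell commits to mitochondrial cell death, and 10 of its genes were followed here in mouse haematopoietic stem cells with and without induction of the ETV6-RUNX1 fusion. Members were taken by gene symbol from the 55471 gene IDs of the deposited table, and each of the 10 symbols had 1 row. They comprise the guardians Bcl2, Bcl2l1 (Bcl-xL) and Mcl1, the effectors Bax and Bak1, and the BH3-only genes Bcl2l11 (Bim), Bbc3 (Puma), Pmaip1 (Noxa), Bid and Bad. All mice carried the ETV6-RUNX1 genotype, a doxycycline-inducible form of the fusion gene of childhood B-cell precursor leukaemia. Total RNA was sequenced from stem cells sorted as lineage-negative, Kit+, Sca1+, CD48- and CD150+. The 3 uninduced libraries came from mice without doxycycline, and the 3 induced libraries from mice fed it for 2 weeks. The promoter that drives the fusion, the strain, the age and the number of mice per library are not given in the labels used here. No library with doxycycline but without the fusion was analysed here, so induction and doxycycline cannot be told apart.

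Guardian proteins hold the effectors in check at the outer mitochondrial membrane, and effectors that escape form pores through which cytochrome c leaves. BH3-only proteins are the stress sensors: they occupy the groove of the guardians, and some also switch on the effectors directly. Blood stem cells are known to depend on Mcl1 in particular, and Puma and Noxa are known targets of the tumour suppressor p53. These proteins are also controlled by phosphorylation, cleavage and degradation, which transcript levels do not show.

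None of the 9 members that could be tested passed the threshold on the deposited values, where 11.5% of 13470 tested genes did (1.29% higher and 10.2% lower in induced cells). Puma (Bbc3) had the largest difference of the members, with a mean 3.13 times higher in induced cells and no overlap between the groups, but its limma adjusted p was 0.0775. Mcl1 was the most abundant member in all 6 libraries, and its share of the library was nearly level. Bcl2 and Bak1 were lower in each induced library than in each uninduced one, without passing the test. Pmaip1 was listed at 0 in 5 of the 6 libraries.

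Sequence upstream of the transcript start is shown for the 2 members whose values were higher in every induced library, Mcl1 and Bbc3. Each is the 250 bases before the first RefSeq start in GRCm38.p6, on the plus strand and with no base in an annotated exon. The Mcl1 stretch is chr3:95658471-95658720, and the Bbc3 stretch is chr7:16309333-16309582, which lies in an intron of the longer GENCODE gene model.
Mcl1: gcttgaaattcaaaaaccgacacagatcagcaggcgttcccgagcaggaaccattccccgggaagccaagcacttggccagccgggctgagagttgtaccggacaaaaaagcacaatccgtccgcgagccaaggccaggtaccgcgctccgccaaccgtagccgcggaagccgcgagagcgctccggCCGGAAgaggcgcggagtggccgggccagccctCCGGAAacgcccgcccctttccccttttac
Bbc3: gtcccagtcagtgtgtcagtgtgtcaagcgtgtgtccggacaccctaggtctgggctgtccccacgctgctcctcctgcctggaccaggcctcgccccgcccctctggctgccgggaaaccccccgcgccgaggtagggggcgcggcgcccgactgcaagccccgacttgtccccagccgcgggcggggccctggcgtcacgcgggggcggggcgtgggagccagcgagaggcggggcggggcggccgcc
Capitals mark the ETS-type motif CCGGAA, which begins 63 and 30 bases before the Mcl1 start. The Bbc3 stretch held no match to that motif, to the RUNX motif TGTGGT or to the p53 half-site consensus.

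The same 3 motifs were searched on both strands of 15 RefSeq promoter windows of 300 bases, which covered 9 members. The ETS-type motif was found in 5 of the 15 member windows, 1 each of Mcl1, Bcl2l11, Bcl2l1, Bid and Bad, and in 14.9% of 32851 windows of all genes. The RUNX motif was found in 1 member window, that of Bak1, and in 16.8% of all windows. The p53 half-site consensus was found in 1 member window, that of Bax, and in 8.4% of all windows. The matches of Bak1 (chr17:27028831-27028860, minus strand) and Bax (chr7:45467080-45467109, minus strand) are shown in capitals within 30 bases, and begin 221 and 201 bases before the start. The Bak1 stretch lies inside the GENCODE Bak1 gene, whose start is further upstream, and its 250-base window overlaps annotated exons.
Bak1: tttgttgttgtcTGTGGTttgcttttcact
Bax: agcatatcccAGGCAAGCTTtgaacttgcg
A match is a description of the letters and shows no binding.

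Values are transcript abundances in TPM units, a length-corrected share of each library that allows levels of different genes to be compared. The depth of each library is unknown, because TPM keeps none, so no counting interval can be given. The median log2 change of all tested genes was -0.35, so most transcripts took a smaller share of the induced libraries. Changes are therefore given on the deposited scale and after median-of-ratios scaling, which brought that median to 0.0033. No label says that libraries came from separate animals, and p-values measure the spread between libraries, which may be technical. In these bulk libraries, fewer cells of a type and less RNA per cell cannot be told apart.

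Marker genes give the cell state beside which the members were measured. Of 10 stem cell markers, 10 reached the expression minimum of a mean of 1 TPM. Summed neutrophil and monocyte markers were at 235 to 286 TPM uninduced and 234 to 285 TPM induced, led by Lyz2 and S100a9, with Prtn3 called higher (log2 change 1.12, limma adjusted p 0.0114). Of the same list, Elane (-1.15), Mpo (-1.104), S100a8 (-0.556) and S100a9 (-0.675) changed downwards and Lyz2 (0.442) upwards, without passing. After median-of-ratios scaling 2 genes of this list were called higher. Summed megakaryocyte markers were at 110 to 140 and 105 to 125 TPM, with Pf4 called higher (1.13, adjusted p 0.0253) and Gp9 lower (-2.33, adjusted p 0.0187). Summed multipotent progenitor markers were at 49.1 to 62.9 and 67.1 to 86.8 TPM, and summed endothelial and stromal markers at 15.3 to 27.7 and 30.3 to 39.7 TPM, with 0 genes of either list called as deposited and 1 of each called higher after median-of-ratios scaling. Of 8 T and NK cell markers, 5 were listed at 0 in every library, and Nkg7 was at 5.84 to 15.8 TPM uninduced and listed at 0 in all induced libraries. The summed level of 10 proliferation genes was 384 to 439 TPM in uninduced and 81.9 to 112 TPM in induced libraries, and 9 of the 10 were called lower with limma. The summed level of 8 erythroid markers was 40.8 to 52.3 TPM in uninduced and 214 to 243 TPM in induced libraries, with 5 called higher. Most of that sum was globin: Hba-a1 was at 7.65 to 19.3 TPM uninduced and 89.2 to 115.7 TPM induced, and Hbb-bt at 12.8 to 19.5 and 82.3 to 97.7 TPM, 2 genes with near-identical copies. Of the same list, Epor (log2 change -1.65, limma adjusted p 0.0638) and Tfrc (-0.90, adjusted p 0.173) had lower induced means and did not pass. The part of these differences in the members' values was not tested.

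**Figure D1:**
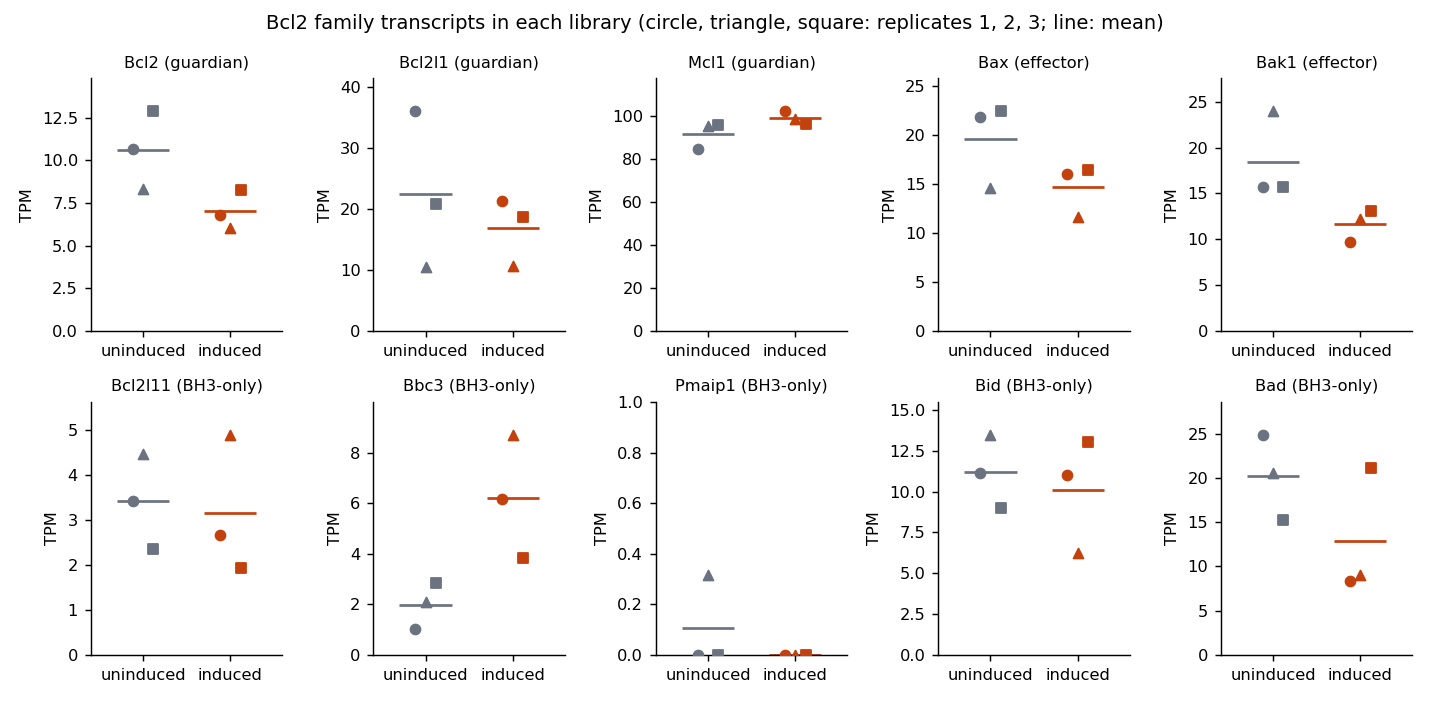
TPM of each member in each library, with uninduced libraries in grey and induced libraries in orange, symbols for replicates 1 to 3 and a line at the group mean. The groups are apart for Bbc3 and Mcl1 (higher in induced) and for Bcl2 and Bak1 (lower in induced), and they overlap for the other tested members.

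Among the guardians, Mcl1 (ENSMUSG00000038612, chr3:95658788-95663176, plus strand) encodes a short-lived protein that is made and destroyed quickly. Uninduced cells had 84.2, 94.96 and 95.7 TPM of it, and induced cells had 101.9, 98.4 and 96.2 TPM. All 3 induced values lay above all 3 uninduced ones, by a margin of less than 1 TPM at the closest pair. The mean was 91.6 ± 6.401 TPM uninduced and 98.8 ± 2.87 TPM induced (SD, n = 3 each). On the log2 scale this was 0.11 (SE 0.15), with a limma adjusted p of 0.678. Its 95% interval was the narrowest of the members, from -0.23 to 0.45.

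The size of the Mcl1 change depended on the scaling, and its place among all genes did so little. After median-of-ratios scaling its levels were 71.5, 76.0 and 92.1 uninduced and 116.8, 121.5 and 104.0 induced, a log2 change of 0.51 (limma adjusted p 0.0781). After rescaling to nuclear protein-coding genes the change was 0.55 and passed (limma adjusted p 0.0381), where 8.39% of 10562 genes were called (4.12% higher and 4.27% lower) and 24.1% had an unadjusted p under 0.05. The share of tested genes with a lower log2 change than Mcl1 was 78.0% as deposited, 81.0% after median-of-ratios scaling and 79.3% after rescaling to nuclear protein-coding genes.

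Bcl2 (ENSMUSG00000057329, chr1:106538178-106714274, minus strand), the founding guardian, was at 10.7, 8.30 and 12.9 TPM uninduced and at 6.79, 6.02 and 8.26 TPM induced. The groups did not overlap on the deposited scale, although the highest induced value came within 0.1 TPM of the lowest uninduced one. The mean was 10.6 ± 2.28 TPM and 7.02 ± 1.14 TPM (SD, n = 3 each). The log2 change was -0.52 with SE 0.29 (limma adjusted p 0.272). After median-of-ratios scaling the groups overlapped and the change was -0.16 (limma adjusted p 0.799).

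Bcl2l1 (ENSMUSG00000007659, chr2:152780668-152831728, minus strand) encodes Bcl-xL, the guardian best known in platelets and red cell precursors. It was at 36.1, 10.6 and 20.9 TPM uninduced and at 21.3, 10.8 and 18.7 TPM induced. The groups overlapped fully, and uninduced replicate 1 stood highest. The log2 change was -0.29 with an interval from -1.21 to 0.64, and it became 0.095 after median-of-ratios scaling and 0.12 without uninduced replicate 1, so its direction was not settled. The erythroid sum, mostly globin, was higher in every induced library while Epor and Tfrc were not, and the part of that difference in Bcl2l1 was not tested.

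The 3 guardians together held 124.8 ± 9.48 TPM in uninduced and 122.8 ± 7.41 TPM in induced cells (SD, n = 3 each). Mcl1 made up 64.3% to 83.4% of that sum uninduced and 78.1% to 85.4% induced.

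The effectors were each lower on average in induced cells. Bak1 (ENSMUSG00000057789, chr17:27019810-27029009, minus strand), which sits in the outer mitochondrial membrane in healthy cells, was at 15.8, 23.9 and 15.7 TPM uninduced and at 9.75, 12.2 and 13.1 TPM induced. Every induced value lay below every uninduced one. The mean was 18.5 ± 4.74 TPM and 11.7 ± 1.73 TPM (SD, n = 3 each). The log2 change was -0.60 with SE 0.26 (limma adjusted p 0.172, unadjusted p 0.0468). After median-of-ratios scaling the groups overlapped and the change was -0.22 (limma adjusted p 0.652).

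Bax (ENSMUSG00000003873, chr7:45461697-45466898, minus strand), which moves from the cytosol to mitochondria when activated, was at 21.8, 14.6 and 22.4 TPM uninduced and at 16.0, 11.6 and 16.4 TPM induced. The groups overlapped through uninduced replicate 2. The log2 change was -0.39 with SE 0.26 (limma adjusted p 0.376), close to the median gene, and it was -0.003 after median-of-ratios scaling. Leaving out single libraries gave from -0.58 (without uninduced replicate 2) to -0.24 (without induced replicate 2) for Bax. The same ranges were -0.70 to -0.41 for Bak1, lowest in size without uninduced replicate 2, -0.67 to -0.39 for Bcl2 and 0.051 to 0.14 for Mcl1, lowest without uninduced replicate 1. The summed effector level was 37.6, 38.5 and 38.1 TPM uninduced and 25.8, 23.8 and 29.5 TPM induced. That sum is a description of 2 members on the deposited scale, where 28.2% of all tested genes were lower without overlap.

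Of the BH3-only genes, Bbc3 (ENSMUSG00000002083, chr7:16308393-16318205, plus strand) encodes Puma, which binds all the guardians. It was at 1.04, 2.08 and 2.83 TPM uninduced and at 6.16, 8.69 and 3.82 TPM induced. Induced replicate 3 lay nearest to the uninduced group, at less than 1 TPM above uninduced replicate 3. The mean was 1.99 ± 0.901 TPM and 6.22 ± 2.44 TPM (SD, n = 3 each). The change of log2(TPM + 1) was 1.26 with SE 0.41 and an interval of 0.34 to 2.19 (limma adjusted p 0.0775, unadjusted p 0.0122). On the log2(TPM + 1) scale 98.0% of tested genes had a lower change. Groups did not overlap, with the induced one higher, for 4.83% of all tested genes.

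Under the 14 alternatives that gave a value, the log2 change of Bbc3 ran from 0.67 to 1.94. With its groups apart, leaving out a library could not reverse the direction. Settings that altered only the filter, the variance model or the block left the change itself as it was. After median-of-ratios scaling it was at 0.884, 1.67 and 2.73 uninduced and at 7.06, 10.7 and 4.13 induced, a log2 change of 1.56 (limma adjusted p 0.0691). It passed after rescaling to nuclear protein-coding genes, at 1.94 (limma adjusted p 0.0474). Over the 14 alternatives the adjusted p ran from 0.0474 to 0.257, the highest without induced replicate 2. In uninduced cells Bbc3 made up 2.57% to 9.63% of the summed BH3-only TPM, and in induced cells 9.57% to 30.1%, so these shares overlapped.

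**Figure D2:**
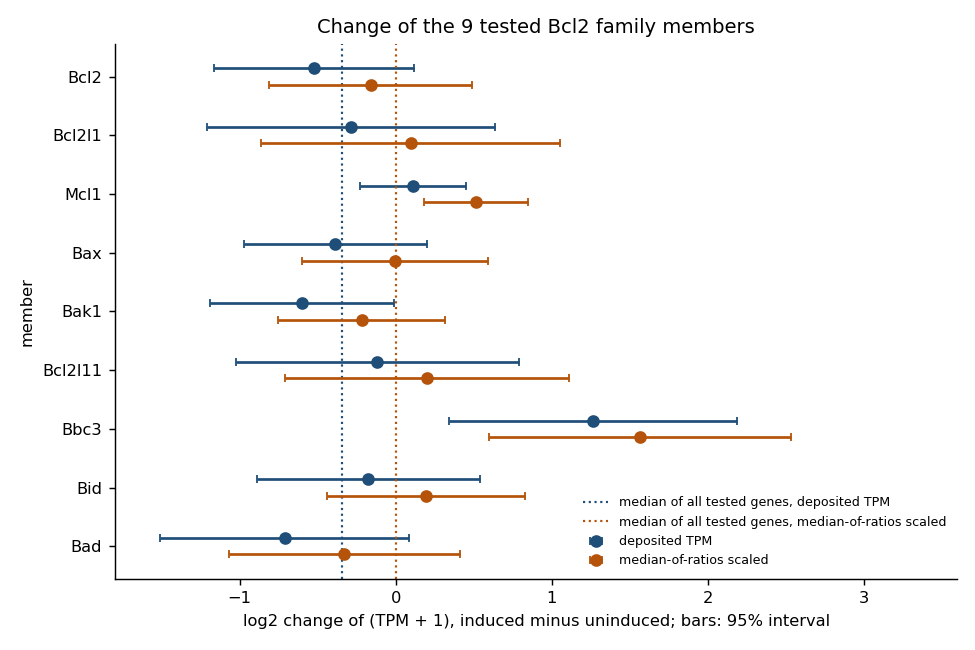
Log2 change of (TPM + 1), induced minus uninduced, for the 9 tested members, with 95% intervals from limma, in blue for deposited TPM and in orange after median-of-ratios scaling, and dotted lines at the median of all tested genes. Bbc3 lies to the right of both lines on both scales, and Mcl1 has the shortest intervals.

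Bcl2l11 (ENSMUSG00000027381, chr2:128126038-128162547, plus strand) encodes Bim, a chief killer of blood cells deprived of cytokines. It was at 3.43, 4.47 and 2.35 TPM uninduced and at 2.66, 4.90 and 1.94 TPM induced. The induced range enclosed the uninduced one. The log2 change was -0.12 with SE 0.41 (limma adjusted p 0.878), and it turned to 0.20 after median-of-ratios scaling, so neither a rise nor a fall was detected. Its interval, from -1.03 to 0.79, leaves room for a change of up to about that size either way.

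Bid (ENSMUSG00000004446, chr6:120891930-120916853, minus strand), which links death receptors to mitochondria once a caspase has cut it, was at 11.2, 13.5 and 8.99 TPM uninduced and at 10.99, 6.23 and 13.1 TPM induced. The groups overlapped, and the log2 change was -0.18 (limma adjusted p 0.761) on the deposited scale and 0.19 after median-of-ratios scaling. Bad (ENSMUSG00000024959, chr19:6941861-6951899, plus strand), which growth factor signalling keeps inactive by phosphorylation, was at 24.8, 20.5 and 15.3 TPM uninduced and at 8.32, 9.01 and 21.1 TPM induced. Induced replicate 3 stood apart from the other induced libraries and fell within the uninduced range. The log2 change of Bad was -0.71 with SE 0.36 (limma adjusted p 0.228) with all libraries. It was -0.33 after median-of-ratios scaling (limma adjusted p 0.618), and ran from -1.11 without induced replicate 3 to -0.48 without induced replicate 1. Pmaip1 (ENSMUSG00000024521), which encodes Noxa, the partner of Mcl1, had 0.316 TPM in uninduced replicate 2 and was listed at 0 elsewhere, so it was below the expression minimum and no fold is given.

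Levels were ordered alike in the groups at the top and bottom. In uninduced cells the order of mean TPM was Mcl1, Bcl2l1, Bad, Bax, Bak1, Bid, Bcl2, Bcl2l11, Bbc3 and Pmaip1. The ranges of neighbouring genes were separate between Mcl1 and Bcl2l1, between Bak1 and Bid, between Bcl2 and Bcl2l11 and between Bbc3 and Pmaip1, and overlapped for the other neighbours. In induced cells Bbc3 stood eighth, between Bcl2 and Bcl2l11, and its range overlapped both. Mcl1 was first and apart from Bcl2l1 in each group.

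Of the 9 tested members, 2 were higher and 7 lower on the deposited scale, with a median log2 change of -0.29 against -0.35 for all tested genes. After median-of-ratios scaling 5 were higher and 4 lower, with a median of 0.095 against 0.0033, and again 0 of 9 passed, where 5.98% of all tested genes did (2.88% higher and 3.1% lower). At an unadjusted p under 0.05 there were 2 members on each scale, Bbc3 and Bak1 on the first and Bbc3 and Mcl1 on the other, beside 27.9% and 21.8% of all tested genes. Groups did not overlap for 4 of 9 members on the deposited scale and for 2 of 9 after median-of-ratios scaling, beside 33.1% and 27.9% of tested genes. With 9 genes these shares do not set the family apart from other genes.

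Ratios between members within a library do not depend on how the library was scaled, and 6 of them were computed. The exact two-sided permutation test cannot go below p = 0.1 with 3 libraries against 3, so none could pass. The ratio of Mcl1 to Bcl2 was 7.90, 11.4 and 7.44 uninduced and 15.0, 16.4 and 11.6 induced, or 1.62 times higher in induced cells (exact permutation p 0.1, adjusted over 6 ratios 0.3). All 3 induced ratios exceeded the uninduced ones, with induced replicate 3 just above uninduced replicate 2.

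The ratio of Bak1 to Mcl1, an effector and a guardian that restrains it, was 0.187, 0.252 and 0.164 uninduced and 0.0957, 0.124 and 0.136 induced. It was lower in every induced library, by a log2 difference of -0.75 between group means (exact permutation p 0.1, adjusted 0.3). This ratio and that of Mcl1 to Bcl2 both contain Mcl1, so they are not independent. How often the groups lie apart for other gene pairs was not computed. Leaving out single libraries gave from 0.58 to 0.89 for Mcl1 to Bcl2 and from -0.89 to -0.58 for Bak1 to Mcl1. With the groups apart, no such omission could reverse either direction.

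The other 4 ratios overlapped between the groups. Bax to Bcl2, often read as a balance of death and survival, was 2.05, 1.76 and 1.74 uninduced and 2.36, 1.92 and 1.98 induced (exact permutation p 0.3, adjusted 0.6). Bim to Bcl2 was 0.322, 0.538 and 0.183 uninduced and 0.392, 0.814 and 0.235 induced. Bim to Mcl1 was 0.0408, 0.0471 and 0.0246 uninduced and 0.0261, 0.0498 and 0.0202 induced. Bcl-xL to Bcl2 ranged from 1.28 to 3.38 uninduced and from 1.79 to 3.14 induced.

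**Figure D3:**
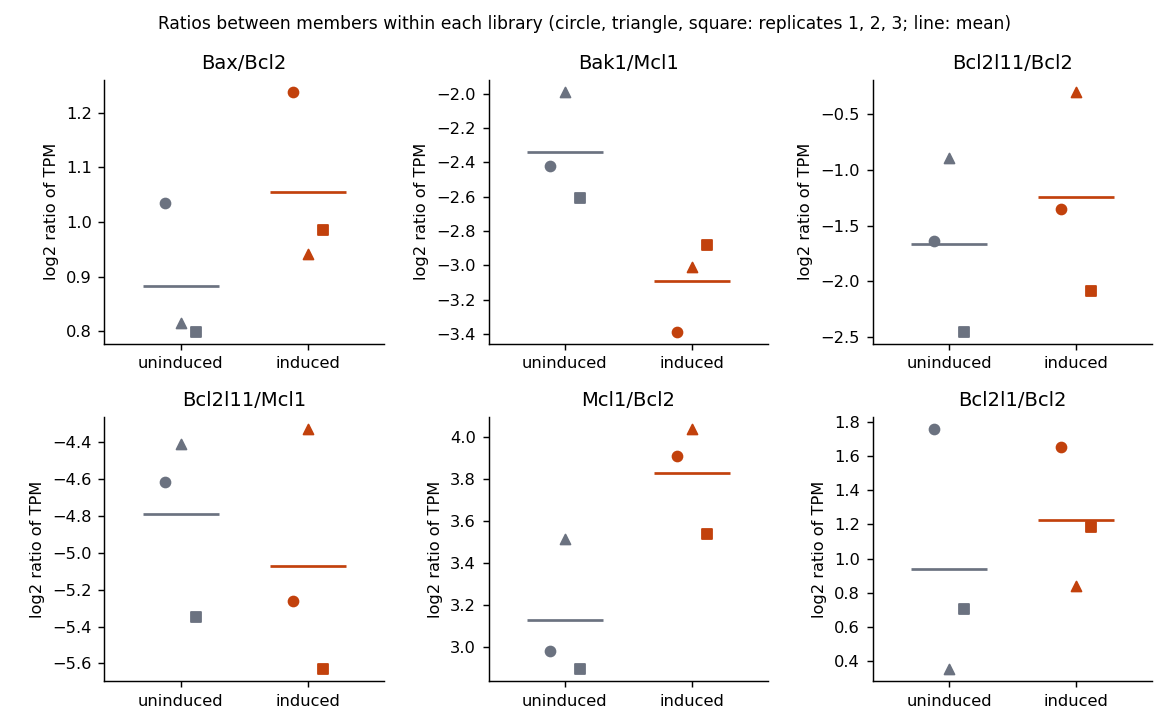
Log2 ratio of TPM between 2 members within each library, for 6 pairs, with uninduced libraries in grey, induced libraries in orange, symbols for replicates 1 to 3 and a line at the group mean; each axis has its own range and does not start at 0. The groups are apart for Bak1/Mcl1 and Mcl1/Bcl2 and overlap for the other 4 pairs.

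Genes around the family were taken from 8 lists of 109 genes, of which 92 reached the expression minimum. On the deposited scale 3 were called higher and 10 lower, or 14.1% of those tested against 11.5% of all genes, and after median-of-ratios scaling 4 were higher and 4 lower, or 8.7% against 5.98%.

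Among 16 other family genes, 7 were tested and 0 passed. In 6 of the 16, including the BH3-only genes Hrk and Bik, the value was listed at 0 in every library. Bmf, a BH3-only gene chosen here after its values were seen, was at 0.205, 0.165 and 0.418 TPM uninduced and at 6.85, 0.643 and 4.65 TPM induced. Its groups did not overlap, but induced replicate 2 was near the uninduced level, and the limma adjusted p was 0.0917 as deposited (log2 change 1.73) and 0.105 after median-of-ratios scaling (1.89).

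Of 12 genes of the apoptosome and caspases, 2 were called lower and 0 higher. Cycs, cytochrome c, fell from 13.8 ± 3.41 to 5.29 ± 1.02 TPM (SD, n = 3 each), and its change of log2(TPM + 1) was -1.22 (limma adjusted p 0.0295). The call did not hold after median-of-ratios scaling (-0.86, adjusted p 0.132) nor when any 1 of the 6 libraries was left out, with log2 changes from -1.37 to -1.04. Parp1, a caspase substrate that acts in DNA repair, fell from 74.4 ± 9.23 to 28.8 ± 2.53 TPM, a log2 change of -1.33 (limma adjusted p 0.00366), and -0.94 after median-of-ratios scaling (adjusted p 0.0166). The caspases themselves and Apaf1, the scaffold that cytochrome c activates, did not pass.

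The inhibitor of apoptosis genes and their antagonists, with 9 tested, had 0 calls, and so did the death receptor list, with 9 tested. With 3 libraries per group an adjusted p over 0.05 does not show that a gene was unaltered. Tnfsf10, the ligand TRAIL, was called higher after median-of-ratios scaling alone of these 2 scales (log2 change 0.98, limma adjusted p 0.0496, against 0.60 and 0.204 as deposited). Among 11 mitochondrial membrane genes, Vdac1, a channel of the outer membrane, fell from 56.8 ± 5.404 to 34.6 ± 2.33 TPM (SD, n = 3 each). Its log2 change was -0.70 (limma adjusted p 0.0362). It was -0.30 after median-of-ratios scaling, where it did not pass (adjusted p 0.314), and the call was kept without uninduced replicate 3 but lost without any other library, with log2 changes from -0.75 to -0.63.

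**Figure D4:**
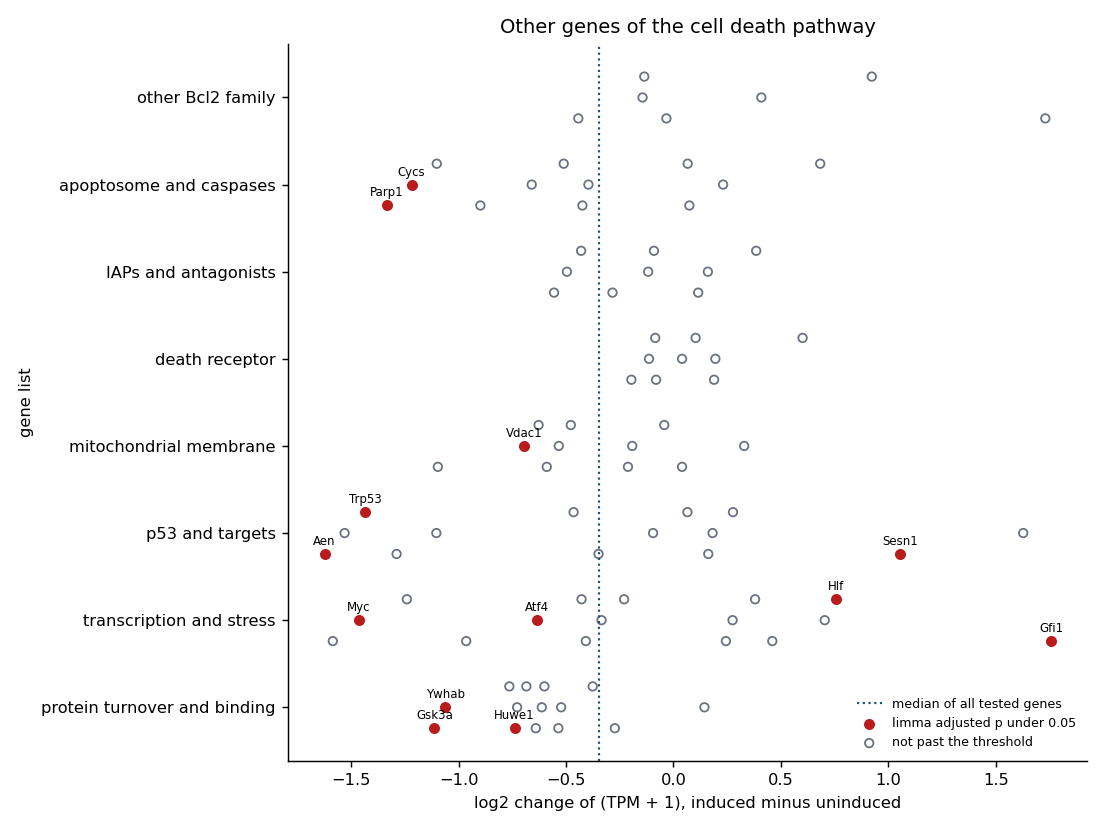
Log2 change of (TPM + 1), induced minus uninduced, on the deposited scale for the 92 tested genes of 8 lists around the family, with filled red points and names for a limma adjusted p under 0.05, open points for the rest and a dotted line at the median of all tested genes. Calls are spread over 5 lists, with 3 higher and 10 lower.

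Bbc3 is a known target of p53, which is encoded by Trp53. Trp53 was at 62.0, 63.3 and 43.4 TPM uninduced and at 24.04, 14.5 and 22.4 TPM induced, with all induced values below the uninduced ones. Its log2 change was -1.44 with SE 0.25 (limma adjusted p 0.00761) on the deposited scale and -1.04 after median-of-ratios scaling (adjusted p 0.0224). Of the 14 tested genes of the p53 list, 1 was called higher and 2 lower, with a median log2 change of -0.22 against -0.35 for all genes (0.16 against 0.0033 after median-of-ratios scaling, with 1 higher and 1 lower). Sesn1, a p53 and FoxO target of the sestrin family, was 26.4 ± 4.55 TPM uninduced and rose to 56.1 ± 12.2 TPM induced (SD, n = 3 each). Its log2 change was 1.05 (limma adjusted p 0.0181). The Sesn1 call was lost without uninduced replicate 1 (0.92, adjusted p 0.0644), induced replicate 1 (1.09, adjusted p 0.0587) or induced replicate 3 (0.89, adjusted p 0.0682), and without the expression filter (adjusted p 0.0563) or the variance trend (adjusted p 0.0628). After median-of-ratios scaling Sesn1 changed by 1.45 (adjusted p 0.00533). Aen, a nuclease gene outside the naming rule because its groups overlapped, was the other lower call (log2 change -1.62, limma adjusted p 0.0467), and was lost after median-of-ratios scaling (adjusted p 0.139). Cdkn1a and Mdm2, also p53 targets, had log2 changes of 0.16 and -0.47 (limma adjusted p 0.868 and 0.247), and did not pass there or after median-of-ratios scaling (0.44 and -0.077). Of the others that did not pass, Trp53inp1 was higher with groups apart (1.63, adjusted p 0.0669), and Pidd1 was lower with groups apart (-1.53, adjusted p 0.0613). The level of Trp53 RNA does not show p53 activity, and the part of p53 in the Bbc3 difference was not tested.

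Of 16 tested transcription and stress regulators, 2 were called higher and 2 lower. Gfi1, a repressor needed for stem cell quiescence, was at 3.88, 3.46 and 2.16 TPM uninduced and at 12.5, 13.6 and 12.5 TPM induced, a log2 change of 1.76 with SE 0.30 (limma adjusted p 0.00709), and 2.10 after median-of-ratios scaling (adjusted p 0.00447). Hlf, a stem cell factor, was 78.4 ± 14.3 TPM uninduced and rose to 132.1 ± 15.4 TPM induced (limma adjusted p 0.0294, SD over 3 libraries each), a call that was kept without uninduced replicate 2 and lost without any other library, at log2 changes from 0.62 to 0.85. After median-of-ratios scaling the Hlf change was 1.16 (adjusted p 0.00491) against 0.76 as deposited. Myc, which drives growth and can sensitise cells to death, fell from 59.8 ± 12.9 to 21.7 ± 8.79 TPM (log2 change -1.47, limma adjusted p 0.012), with a change of -1.07 after median-of-ratios scaling (adjusted p 0.0415). The Myc call was lost without uninduced replicate 2 (adjusted p 0.0598), induced replicate 1 (0.0512) or induced replicate 2 (0.0610). Atf4, a stress response factor, fell by 0.64 on the log2 scale (limma adjusted p 0.0443), and did not pass after median-of-ratios scaling (-0.23, adjusted p 0.422) nor when any 1 library was left out, with log2 changes from -0.75 to -0.57. Foxo3, a known activator of Bim and Puma transcription, had a log2 change of -0.43 as deposited (limma adjusted p 0.337) and -0.03 after median-of-ratios scaling (adjusted p 0.959).

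Of 14 tested genes for turnover and binding of the family's proteins, 0 were called higher and 3 lower, with a median log2 change of -0.63 against -0.35 for all genes, of which 10.2% were called lower. After median-of-ratios scaling the list's median was -0.26, with 1 gene called lower. Huwe1, a ubiquitin ligase that marks Mcl1 for destruction, fell from 104.3, 86.5 and 82.2 TPM to 60.4, 49.05 and 52.6 TPM. Its log2 change was -0.74 (limma adjusted p 0.0273). Huwe1 did not pass after median-of-ratios scaling (-0.34, adjusted p 0.245) nor on leaving out any library except uninduced replicate 3, with log2 changes from -0.82 to -0.64. Gsk3a, a form of the kinase GSK3, which phosphorylates Mcl1 and so favours its destruction, fell from 26.9 ± 1.40 to 11.9 ± 1.35 TPM. Its log2 change was -1.11 (limma adjusted p 0.0126), and it was not called after median-of-ratios scaling (-0.73, adjusted p 0.0847) or without induced replicate 1 (-1.02, adjusted p 0.0523). Ywhab, one of the 14-3-3 proteins that hold phosphorylated Bad, fell from 68.8 ± 9.86 to 32.6 ± 6.14 TPM, a log2 change of -1.06 (limma adjusted p 0.0121), and -0.66 after median-of-ratios scaling (adjusted p 0.0456). The Ywhab call was lost narrowly without uninduced replicate 1 or 2 or induced replicate 1 or 2, with adjusted p from 0.0501 to 0.0594.

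Exons of 5 members share bases with another annotated gene. Of exonic bases, 20.5% of Bad lie under Gpr137, 18.2% of Bak1 under Ggnbp1 (the larger overlap of its 2 gene IDs), 17.7% of Bid under Bcl2l13 and 6.1% of Bcl2 under D630008O14Rik, all on the opposite strand, and 12.2% of Bax under Gm45808 on the same strand. The libraries were stranded, but the strand setting of the quantification is not given in the sources used here, so the values of Bad, Bak1, Bid and Bcl2 are uncertain to that extent. The Bax overlap is on its own strand and cannot be resolved by any strand setting. Bbc3, Mcl1, Bcl2l1 and Bcl2l11 shared no exonic base.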

How the data were processed

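Per the submitters' processing notes, bcl2fastq, HISAT2, StringTie and DESeq2 were used with build GRCm38. Versions, annotation release and strand setting are not given in the sources used here. The authors deposited TPM per gene, and, per the file headers, the percent GC of each gene, which was not used. The 60496 rows were summed per gene ID (55471 IDs), because library totals reach 999976 to 999993 TPM only over all rows. The 13470 genes averaging 1 TPM or more were tested as log2(TPM + 1) by the limma package 3.58.1 (R 4.3.3), using empirical Bayes with a variance trend, two-sided, with Benjamini-Hochberg adjustment over all tested genes and a threshold of 0.05. The log2(TPM + 1) scale understates changes of low genes. Intervals are 95% intervals from limma.

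Members and lists were chosen with earlier results of these data known. All members are named. From each list, up to 3 higher and 3 lower genes with the largest change are named among those past the threshold with groups apart; other genes were chosen after their values were seen, to show known partners of the family. The closest profile to a called member was to be named, but no member was called. Positions are from GENCODE M21 (55144 of 55471 IDs matched) and promoters from RefSeq GRCm38.p6. Alternatives were other pseudocounts, filters, scalings, variance models and library weights, the replicate number as a block, and each library omitted in turn.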

Additional observations from a re-analysis of the deposited data

How the results depend on the processing

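The number of genes called, 1549 (174 higher, 1375 lower), was 752 without the expression filter, 806 (388 higher, 418 lower) after median-of-ratios scaling, 886 (435 and 451) after nuclear protein-coding rescaling, 767 without the variance trend and 902 with the replicate block, and lay between 573 and 1198 without single libraries. The count of members called stayed at 0 in 14 of the 15 alternatives and was 2 (Bbc3 and Mcl1) after nuclear protein-coding rescaling. Bbc3 and Bcl2l11 have no value with a minimum mean of 5 TPM. Under median-of-ratios scaling and nuclear protein-coding rescaling, Bcl2l1 became 0.095 and 0.14, Bcl2l11 0.20 and 0.25 and Bid 0.19 and 0.23. Bax became 0.027 after nuclear protein-coding rescaling. Without single libraries Bcl2l1 became 0.12 (uninduced replicate 1), Bcl2l11 0.049 (uninduced replicate 2) and 0.10 (induced replicate 3) and Bid 0.10 (induced replicate 2), with ranges over the omitted libraries of -0.72 to 0.12, -0.40 to 0.10 and -0.37 to 0.10; the cause was not tested. The ratio of Bcl2l11 to Bcl2 became -0.061 without induced replicate 2 (range -0.061 to 0.83), and that of Bcl2l1 to Bcl2 -0.007 without uninduced replicate 2 (range -0.007 to 0.70). Of the recomputed member changes 120 kept direction and side of the threshold, 11 changed direction and 2 came to pass. The 120 include settings of the filter, the variance trend and the block, which leave the log2 change as it was and cannot reverse it. Of the 12 named genes around the family, 3 (Parp1, Trp53 and Gfi1) passed in each of the 15 alternatives, and 7 passed with the replicate block. Without the expression filter Cycs, Sesn1, Hlf, Myc and Atf4 did not pass, without the variance trend Vdac1, Sesn1, Hlf, Atf4, Ywhab and Huwe1 did not, and with the block Cycs, Vdac1, Hlf, Atf4 and Huwe1 did not. Same-numbered libraries share only a number: their deviations from the group means correlated at 0.0215, -0.0152 and 0.0172, and with the replicate block no member passed (Bbc3 1.26, adjusted p 0.118). Depth is unknown, which limits what can be said of Pmaip1, Bbc3 and Bcl2l11, the lowest members.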

Other observations

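The order of the 3 libraries by number was the same in both groups for 4 of the 9 tested members, Bcl2, Bcl2l1, Bax and Bcl2l11. Over the 13100 tested genes with 3 different values in each group, this was so for 14.7%. Bcl2 and Bax had the same order in each group, with replicate 3 highest and replicate 2 lowest, and Bcl2l11 was highest in replicate 2 of each group. The pattern was noticed in these data, and no test of it was made.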
